A study of Homo sapiens with 18 samples.

Results

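The Hippo pathway machinery was followed through 10 genes, taken by name out of the 58051 genes in the table. They are the transcriptional coactivators YAP1 and WWTR1 (the gene of TAZ), the DNA-binding factors TEAD1, TEAD2, TEAD3 and TEAD4, the kinases LATS1, STK3 (MST2) and STK4 (MST1), and the upstream scaffold NF2 (merlin). All 10 passed the filter on low counts in both cell lines. The samples are 18 RNA sequencing libraries of SKMEL2 and SKMEL30, melanoma lines that both carry a codon 61 mutation of NRAS, in 6 groups of 3. Every library comes from cells selected with puromycin to carry pTRIPZ, a lentiviral vector from which doxycycline induces Myc-tagged PPP2R3B, a regulatory subunit of the phosphatase PP2A. Each line was untreated, induced for 6 h or induced for 18 h. Both induced groups of a line were compared with the same 3 untreated libraries, and no library of doxycycline-treated cells without the PPP2R3B insert was analysed here, so PPP2R3B and doxycycline cannot be told apart.

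In the Hippo pathway STK3 and STK4 phosphorylate and activate the LATS kinases, with NF2 bringing LATS to the membrane. LATS1 and LATS2 then phosphorylate YAP1 and WWTR1, which holds them in the cytoplasm or marks them for degradation. Unphosphorylated YAP1 and WWTR1 enter the nucleus and switch on genes together with a TEAD factor, and in melanoma this output is known for its link to dedifferentiated, invasive cell states. PP2A acts on the pathway as well: within the STRIPAK complex it removes the activating phosphate from STK3 and STK4. The libraries measure messenger RNA, so neither phosphorylation nor the location of a protein was recorded.

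The promoter sequences of YAP1, the coactivator whose promoter holds a TEAD motif, of STK4, and of TEAD2 and NF2, the 2 genes of the 10 that differed most between the lines, are given here from RefSeq on GRCh38.p14. Each runs from 250 bases before the annotated start to 50 bases after it and is written 5′ to 3′ on the gene's strand. Capitals mark a match to a searched motif on either strand, and TEAD2 and NF2 hold none.
YAP1 promoter, chr11:102110197-102110496, plus strand: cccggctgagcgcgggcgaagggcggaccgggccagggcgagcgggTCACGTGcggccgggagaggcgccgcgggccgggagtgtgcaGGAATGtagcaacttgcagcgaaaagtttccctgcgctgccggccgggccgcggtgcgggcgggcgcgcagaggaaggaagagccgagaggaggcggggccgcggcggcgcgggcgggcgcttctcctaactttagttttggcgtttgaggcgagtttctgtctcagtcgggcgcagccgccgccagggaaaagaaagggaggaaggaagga
STK4 promoter, chr20:44966262-44966561, plus strand: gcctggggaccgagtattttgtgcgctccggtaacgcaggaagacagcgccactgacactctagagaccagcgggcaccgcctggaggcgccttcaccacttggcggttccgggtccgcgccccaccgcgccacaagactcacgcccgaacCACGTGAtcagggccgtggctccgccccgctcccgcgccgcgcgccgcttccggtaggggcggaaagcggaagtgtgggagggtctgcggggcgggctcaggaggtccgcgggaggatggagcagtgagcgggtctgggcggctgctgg
TEAD2 promoter, chr19:49362367-49362666, minus strand: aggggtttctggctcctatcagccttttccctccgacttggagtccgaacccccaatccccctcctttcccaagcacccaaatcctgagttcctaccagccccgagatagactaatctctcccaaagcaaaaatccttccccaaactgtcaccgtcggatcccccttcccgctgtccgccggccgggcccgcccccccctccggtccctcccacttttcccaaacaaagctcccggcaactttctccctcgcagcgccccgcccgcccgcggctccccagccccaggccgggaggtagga
NF2 promoter, chr22:29603306-29603605, plus strand: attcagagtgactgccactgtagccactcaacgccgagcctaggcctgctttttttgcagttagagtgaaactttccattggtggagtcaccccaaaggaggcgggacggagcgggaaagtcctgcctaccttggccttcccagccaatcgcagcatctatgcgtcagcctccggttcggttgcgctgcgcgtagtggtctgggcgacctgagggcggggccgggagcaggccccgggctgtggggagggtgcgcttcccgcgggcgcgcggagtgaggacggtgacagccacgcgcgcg
The motifs searched on both strands were GGAATG of TEAD, TCACGTG and TCATGTG of MITF and TGACTCA of AP-1, none of which overlaps another at these matches. YAP1 held GGAATG at base 89 and TCACGTG at base 47 of the window, and STK4 held TCACGTG on the opposite strand at base 152. Of 35116 promoters of this length, 14.0% held GGAATG, 3.71% TCACGTG, 2.92% TCATGTG and 4.95% TGACTCA. RefSeq windows of 7 of the 10 genes were searched, and among their 11 windows only these 2 promoters held a match. TEAD1 and TEAD4 had no entry, and STK3 was left out of the search.

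Totals ran from 13402645 to 22383470 counts per library. The common biological coefficient of variation, the spread between replicates after counting noise is removed, was 8.36% in SKMEL2 and 4.11% in SKMEL30. PPP2R3B stood at 20.7 ± 3.596 CPM (counts scaled by library size, as edgeR gives them; mean ± SD, n = 3) in untreated SKMEL2 and 20.9 ± 1.35 in untreated SKMEL30. It rose by 4.38 and 4.52 on the log2 scale at 6 h and 18 h in SKMEL2, and by 4.69 and 4.88 in SKMEL30. The melanocyte genes MITF, PMEL, MLANA, TYR, DCT, SOX10 and S100B were above 100 CPM in both untreated lines, whereas TYRP1 was at 4.06 ± 0.550 CPM in SKMEL2 and 1283 ± 43.7 in SKMEL30. Of 12 markers of other cell types, 6 reached 1 CPM in untreated SKMEL2 and 1, CDH1, in untreated SKMEL30. Their summed mean level was 14.4 to 21.5 CPM across the SKMEL2 groups and 105 to 131 CPM across the SKMEL30 groups, most of it CDH1 in SKMEL30 (103 ± 1.66 CPM untreated against 3.86 ± 0.128 in SKMEL2). The endothelial marker CDH5 was at 0 in every SKMEL2 library and the T cell marker CD3E at 0 in every SKMEL30 library. The keratin genes KRT5 and KRT14 were uneven between libraries of a group, reaching 37.5 and 26.4 CPM in SKMEL30 6 h replicate 3, while the lowest of that group were at 0.0502 and 0.201 CPM. Whether these keratin levels had a part in any result was not tested. In bulk libraries such as these, fewer cells with a transcript and less of it per cell cannot be told apart.

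Untreated cells of both lines expressed all 10 genes, and WWTR1 and TEAD1 were the most abundant. Levels of different genes are compared per length, as CPM divided by the kilobases of annotated exons. In SKMEL2, WWTR1 led with 54.1 ± 1.28 CPM per kb (SD, n = 3), TEAD1 followed with 40.8 ± 1.95 and YAP1 with 27.7 ± 1.40. Below these 3 genes there was a gap, to 9.43 ± 0.286 for STK4, 8.41 ± 0.0690 for LATS1 and 7.81 ± 0.700 for TEAD4. TEAD2 stood at 5.96 ± 0.385, NF2 at 3.45 ± 0.229, STK3 at 2.30 ± 0.0298 and TEAD3 at 1.99 ± 0.0498 CPM per kb. LATS1 and TEAD4 overlapped in their libraries, and the other neighbours in this order did not.

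In untreated SKMEL30, TEAD1 (37.03 ± 0.861 CPM per kb) and WWTR1 (36.2 ± 0.553) overlapped at the top, and YAP1 came next at 18.0 ± 0.617. TEAD4 (13.2 ± 0.865) and NF2 (11.9 ± 0.373) took the places held in SKMEL2 by STK4 and LATS1, which stood at 9.68 ± 0.104 and 4.49 ± 0.108 CPM per kb. TEAD3 had 3.65 ± 0.534, STK3 2.37 ± 0.131 and TEAD2 2.24 ± 0.104 CPM per kb, the last pair overlapping. With the longest annotated transcript as the length, WWTR1 was first in both lines and STK4 rose above TEAD4 and NF2 in SKMEL30, since much of the annotated exon length of STK4 lies outside its longest transcript. The order of the levels in the middle of the list therefore depends on which transcript is counted.

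**Figure D1:**
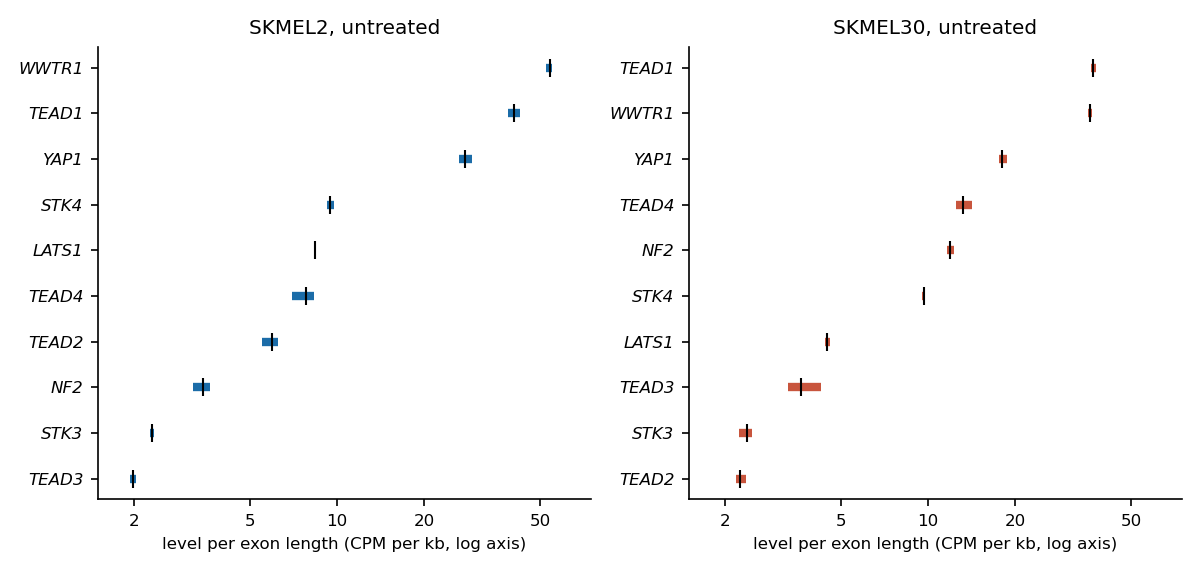
Level of each of the 10 Hippo genes per exon length in untreated cells, on a log axis in CPM per kb; ticks are means and bars run from the lowest to the highest of 3 libraries. WWTR1, TEAD1 and YAP1 were the 3 highest in both lines, and NF2 had rank 8 in SKMEL2 and rank 5 in SKMEL30.

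Within the TEAD family, TEAD1 made up 72.1 ± 1.55% of the summed level per length in untreated SKMEL2 and 66.0 ± 0.747% in SKMEL30 (SD, n = 3). The remainder was divided differently. TEAD2 held 10.5 ± 0.386% in SKMEL2 and 4.002 ± 0.0970% in SKMEL30, TEAD3 3.52 ± 0.179% and 6.51 ± 0.997%, and TEAD4 13.8 ± 1.57% and 23.4 ± 0.867%. None of the 4 shares overlapped between the lines in their untreated libraries. By the test given below, 75.9% of all genes tested differed between the untreated lines. Such separation, here and in the ratios that follow, therefore cannot be read as particular to these genes. The ratio of WWTR1 to YAP1 was 1.96 ± 0.120 in SKMEL2 and 2.01 ± 0.0982 in SKMEL30, ranges that overlapped. The ratio of the 2 coactivators together to the 4 TEAD factors together was 1.45 ± 0.0256 in SKMEL2 and 0.967 ± 0.0294 in SKMEL30, without overlap. With the longest transcript as length this ratio was 1.85 and 1.23, and that of WWTR1 to YAP1 was 2.78 and 2.86. The size of these ratios therefore depends on the length used. So does whether the ratio of coactivators to TEAD factors in SKMEL30 lies above or below 1.

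The first comparison asks how the resting machinery differed between the lines before induction. Of the 10 genes, 8 differed between untreated SKMEL30 and untreated SKMEL2 by edgeR's quasi-likelihood test with Benjamini-Hochberg adjustment, 3 higher and 5 lower in SKMEL30. The background is high, since 75.9% of the 17133 genes tested in the fit of all 18 libraries were called in this comparison. The median size of the difference was 0.69 on the log2 scale over the 10 genes and 0.67 over all genes tested, close to each other. Nothing in the labels says that replicates were separate cultures, so p-values measure only the spread between these libraries.

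Both coactivators were lower in SKMEL30. YAP1, at chr11:102110447-102233424 of GRCh38, read 184, 174 and 166 CPM in the 3 untreated SKMEL2 libraries and 111, 112 and 118 CPM in those of SKMEL30. The log2 difference, SKMEL30 minus SKMEL2, was -0.62 ± 0.056 (SE; adjusted p = 5.05e-09, edgeR), or 1.54-fold lower. WWTR1 (chr3:149517235-149724788) read 455, 439.9 and 461 CPM in SKMEL2 and 306, 304 and 297 CPM in SKMEL30, 1.49-fold lower, with a log2 difference of -0.58 ± 0.044 (adjusted p = 3.68e-10, edgeR). For both genes all 9 libraries of SKMEL30, induced or not, lay below all 9 of SKMEL2. How many of all genes separate the lines in this way was not counted. With 75.9% of all genes called between the untreated lines, such separation cannot be read as particular to these genes.

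The TEAD factors, which bring YAP1 and WWTR1 to DNA, went in both directions. TEAD2 (chr19:49340595-49362416) read 18.2, 16.5 and 18.6 CPM in untreated SKMEL2 and 7.05, 6.49 and 6.52 CPM in untreated SKMEL30, 2.66-fold lower (log2 difference -1.41 ± 0.083, edgeR adjusted p = 6.45e-12). TEAD3 (chr6:35473597-35497079) read 5.88, 6.17 and 6.12 CPM in SKMEL2 and 10.03, 12.99 and 10.3 CPM in SKMEL30, 1.84-fold higher (log2 difference 0.88 ± 0.11, edgeR adjusted p = 5.30e-07). TEAD4 (chr12:2959397-3040676) was 1.68-fold higher, at 32.1, 29.3 and 28.4 CPM in SKMEL30 against 16.0, 19.0 and 18.3 CPM in SKMEL2 (log2 difference 0.75 ± 0.094, edgeR adjusted p = 5.18e-07). The 9 libraries of each line were fully apart for TEAD2, TEAD3 and TEAD4, again without a count of how many of all genes were. TEAD1 (chr11:12674421-12944737), the most abundant of the family, read 455, 414 and 439.9 CPM in SKMEL2 and 407, 392 and 390.1 CPM in SKMEL30. Its log2 difference of -0.14 ± 0.054 was called (edgeR adjusted p = 0.0259), but the call was lost without SKMEL2 untreated replicate 1 (adjusted p = 0.129), SKMEL2 untreated replicate 3 (0.0588), SKMEL30 untreated replicate 2 (0.1004) or SKMEL30 untreated replicate 3 (0.101).

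TEAD2 overlaps CD37 on the opposite strand, and the counting setting for strand is not given in the sources used here. CD37 had 23 to 53.31 counts in the SKMEL2 libraries and 0 to 6 in those of SKMEL30, where TEAD2 had 289 to 440 and 76 to 133 counts. CD37 was lower in SKMEL30 as TEAD2 was, and its part in the TEAD2 values was not tested. For the other 9 genes no overlapping annotated gene had more than 21 counts in any library.

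NF2, the scaffold that recruits LATS kinases to the membrane, showed the largest difference of the 10. It lies at chr22:29603556-29698600 and read 23.6, 26.9 and 26.0 CPM in untreated SKMEL2 and 91.0, 86.8 and 85.8 CPM in untreated SKMEL30, 3.44-fold higher with a 95% interval of 3.11 to 3.81 (log2 difference 1.78 ± 0.069, edgeR adjusted p = 9.34e-15). LATS1 (chr6:149658153-149718101), the kinase that phosphorylates YAP1 and WWTR1, went the other way, from 71.7, 70.8 and 71.9 CPM in SKMEL2 to 37.8, 37.4 and 39.1 CPM in SKMEL30, 1.88-fold lower (log2 difference -0.91 ± 0.065, edgeR adjusted p = 1.52e-10). Both genes were apart in all 9 against 9 libraries, a separation whose share over all genes was not counted. The kinases at the head of the cascade showed no called difference. STK3 (chromosome 8) read 29.0, 28.7 and 29.4 CPM in SKMEL2 and 31.3, 28.1 and 30.2 CPM in SKMEL30, and STK4 (chr20:44966512-45080021) read 162, 153 and 154 and 162, 161 and 158 CPM. Their differences were bounded at -6.22% to 12.8% for STK3 and -3.57% to 9.31% for STK4 by the 95% intervals (edgeR adjusted p = 0.572 and 0.433), and both signs turned with a minimum of 10 counts in every library (log2 differences of -0.0091 and -0.012).

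**Figure D2:**
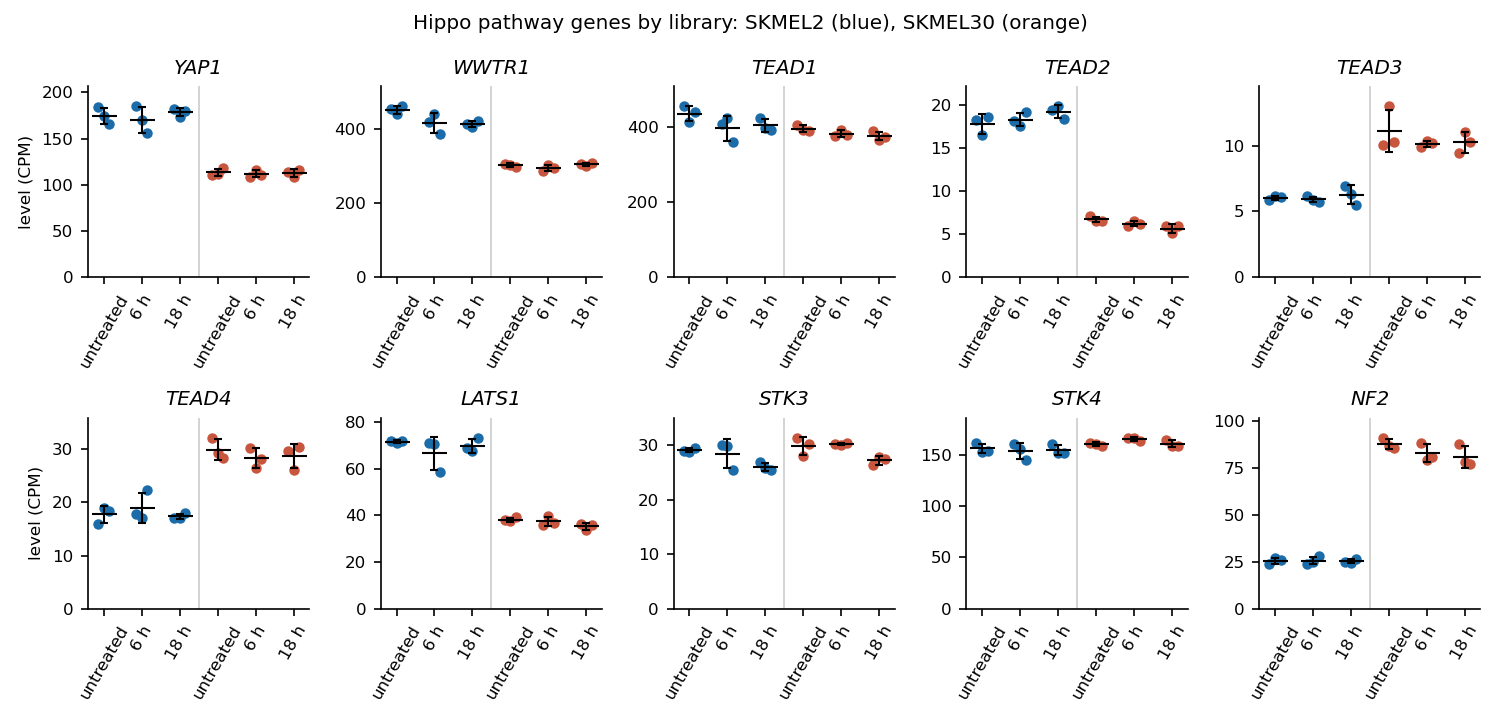
Level of each of the 10 Hippo genes in CPM in every library, with the mean and SD of each group of 3 as a black bar; the y axis of each panel starts at 0. SKMEL2 and SKMEL30 are fully apart for YAP1, WWTR1, TEAD2, TEAD3, TEAD4, LATS1 and NF2, while the 3 groups within a line lie close together. The share of all genes that are apart in this way was not counted.

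The rest of the pathway was read from lists of related genes. These lists were chosen with earlier results of these data known, so their counts and medians are no independent evidence. Of 17 core partners and inhibitors, 15 were tested between the untreated lines, 4 were higher in SKMEL30 and 10 lower, beside the 75.9% of all genes called in this comparison. LATS2, the other LATS kinase, differed in the direction opposite to LATS1, at 17.8 ± 0.267 CPM in SKMEL2 and 56.0 ± 1.76 in SKMEL30 (log2 difference 1.66 ± 0.059, edgeR adjusted p = 2.80e-15). WTIP, an Ajuba family LIM protein that restrains LATS, was at 1.82 ± 0.520 and 8.95 ± 0.362 CPM. VGLL3, a cofactor that binds TEAD in place of YAP1, was at 1.66 ± 0.0465 CPM in SKMEL2, with 28 to 39 counts per untreated library, and had 0 to 6 counts in those of SKMEL30. The median log2 difference over the 15 genes was -0.36, against -0.054 over all genes.

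Of 21 upstream regulators, 20 were tested, 8 were higher and 9 lower in SKMEL30, again beside 75.9% of all genes called. DCHS1, the cadherin that pairs with FAT4, was at 3.01 ± 0.367 CPM in SKMEL2 and 0.327 ± 0.0508 in SKMEL30. Of the MAP4K family kinases, which can phosphorylate LATS in parallel to STK3 and STK4, MAP4K2 was at 5.46 ± 0.217 CPM in SKMEL2 and 23.8 ± 1.14 in SKMEL30, and TNIK at 179 ± 7.04 and 44.1 ± 2.11 CPM. Of 18 STRIPAK genes, 17 were tested, 8 were higher and 8 lower, beside the same 75.9%. The kinase STK26 was lower in SKMEL30 (-1.63 ± 0.22 on the log2 scale), while the kinase STK25 (1.04 ± 0.061) and the adaptor MOB4 (0.87 ± 0.080) were higher.

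All 22 genes of the list of YAP and TEAD targets were tested, 10 were higher and 11 lower in SKMEL30, beside 75.9% of all genes called. The median absolute log2 difference was 1.80 against 0.67 over all genes. This list too was chosen with earlier results of these data known, so its median is no independent evidence. AXL, a receptor tyrosine kinase, was at 26.1 ± 4.72 CPM in SKMEL2 and 0.926 ± 0.0714 in SKMEL30 (log2 difference -4.82 ± 0.27, edgeR adjusted p = 3.54e-12). ANKRD1, a nuclear ankyrin repeat protein widely used as a readout of YAP1, was at 54.3 ± 9.16 and 2.72 ± 0.512 CPM. CCDC80, a secreted matrix protein, went the other way, at 0.703 ± 0.157 and 6.66 ± 0.154 CPM. The directions within the list were thus mixed, while both coactivators were lower in SKMEL30.

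**Figure D3:**
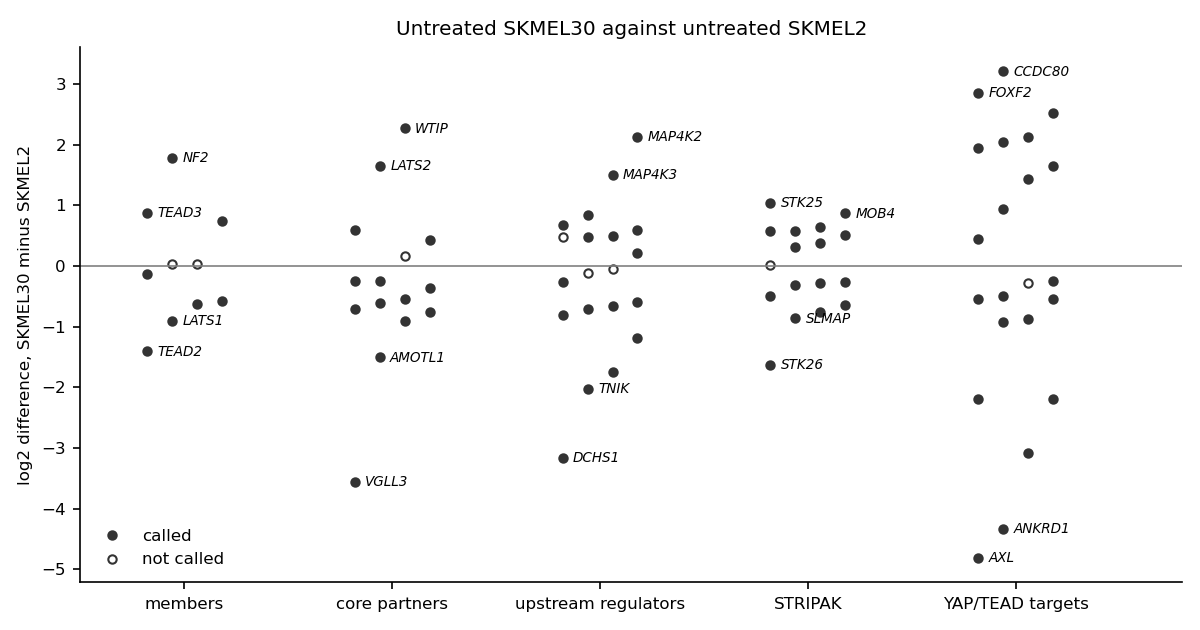
Log2 difference between untreated SKMEL30 and untreated SKMEL2 for the 10 Hippo genes and the 4 lists of related genes; filled points were called at an adjusted p under 0.05. The Hippo genes ran from -1.41 (TEAD2) to 1.78 (NF2), and the YAP and TEAD targets from -4.82 (AXL) to 3.21 (CCDC80).

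The second question was whether the induction of PPP2R3B changed the machinery. No gene of the 10 was called at 6 h or 18 h in either line by edgeR's quasi-likelihood test, nor by DESeq2, which gave no adjusted p for TEAD2, TEAD3, TEAD4, LATS1 and STK3 in SKMEL30 at 18 h. The background was low: 0.0124% of 16120 genes were called at 6 h and again 0.0124% at 18 h in SKMEL2, and 0.206% and 0.293% of 15026 genes in SKMEL30. At an unadjusted p under 0.05 there were 0 of the 10 genes at 6 h and 1 at 18 h in SKMEL2, where 3.37% and 4.65% of all genes passed. In SKMEL30 there were 0 at 6 h and 5 at 18 h, all 5 lower, where 6.44% and 9.14% of all genes passed. The median log2 change of the 10 genes was -0.027 and -0.028 at 6 h and 18 h in SKMEL2, and -0.043 and -0.092 in SKMEL30. Of the 10, 7 lay below 0 at each time in SKMEL2 and 8 at each time in SKMEL30, against 49.1% to 50.05% of all genes. The 6 h and 18 h comparisons of a line share their untreated libraries. The 10 genes were chosen with earlier results of these data known, so these counts and directions are no independent evidence.

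No change of YAP1 was called. In SKMEL2 it read 185, 171 and 156 CPM at 6 h and 182, 174 and 180.2 CPM at 18 h, and in SKMEL30 109, 116 and 111 and 114, 108 and 116 CPM. These ranges overlap the untreated values given above in every group. The 95% interval of the change at 18 h was -7.39% to 12.7% in SKMEL2 and -6.23% to 5.33% in SKMEL30. The sign of the small change turned in each comparison when single libraries were left out.

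WWTR1 in SKMEL2 read 419.7, 439.9 and 387 CPM at 6 h and 413, 404 and 421 CPM at 18 h. All 6 of these values lay below the lowest untreated library, although at 6 h by a margin under 0.1 CPM for replicate 2. The log2 change was -0.12 ± 0.055 at 6 h (unadjusted p = 0.0527, adjusted p = 0.989, edgeR) and -0.13 ± 0.055 at 18 h (unadjusted p = 0.0331, adjusted p = 0.987, edgeR). Of all genes tested in SKMEL2, 1.21% had all 6 induced libraries below the 3 untreated and 1.27% had all 6 above. WWTR1 was the only one of the 10 Hippo genes to do so in SKMEL2, a count of 1 that is too small to be read against this share. In SKMEL30, WWTR1 read 286, 303 and 296 CPM at 6 h and 305, 299.8 and 308 CPM at 18 h, overlapping its untreated libraries at both times. The difference between the lines in the 18 h response of WWTR1 was -0.14 ± 0.062 on the log2 scale, SKMEL2 minus SKMEL30 (unadjusted p = 0.0382, adjusted p = 0.895, edgeR).

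TEAD2 had changes of opposite sign in the lines, none of which passed the test. In SKMEL2 it read 18.1, 17.6 and 19.1 CPM at 6 h and 19.3, 19.8 and 18.3 CPM at 18 h, overlapping the untreated libraries. In SKMEL30 it read 5.93, 6.47 and 6.21 and 5.93, 5.07 and 5.88 CPM, and all 6 induced values lay below the 3 untreated values. The margin was small, since 6 h replicate 2 read 6.473 CPM and untreated replicate 2 read 6.494 CPM. Of all genes in SKMEL30, 2.24% had all 6 induced libraries lower and 2.14% all 6 higher, and TEAD2 was again 1 gene of the 10. The log2 change at 18 h was 0.11 ± 0.082 in SKMEL2 and -0.24 ± 0.11 in SKMEL30 (adjusted p = 0.987 and 0.512, edgeR). The difference between the lines was 0.35 ± 0.12 (unadjusted p = 0.00891, adjusted p = 0.895, edgeR). TEAD2 rested on 76 to 133 counts per library in SKMEL30, so its 95% interval at 18 h was wide, at -28.1% to -0.937%.

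TEAD1 was at 408, 424 and 359.9 CPM at 6 h and 425, 398 and 392 CPM at 18 h in SKMEL2, where 1 value at each time lay among the untreated libraries. In SKMEL30 it was at 378, 393 and 378 and 389.7, 367 and 374 CPM. Its log2 change was -0.13 ± 0.067 and -0.11 ± 0.067 at 6 h and 18 h in SKMEL2, and -0.050 ± 0.029 and -0.073 ± 0.029 in SKMEL30, with adjusted p of 0.475 to 0.989 (edgeR). TEAD3 ranged from 5.52 to 6.94 CPM over the 9 SKMEL2 libraries and from 9.47 to 12.99 CPM over those of SKMEL30. TEAD4 ranged from 16.0 to 22.3 and from 26.2 to 32.1 CPM. The 4 log2 changes lay between -0.13 and 0.050 for TEAD3 and between -0.090 and 0.098 for TEAD4. The TEAD1 share of the family was 69.2 ± 3.71% and 70.1 ± 0.745% in induced SKMEL2 and 66.7 ± 1.301% and 66.3 ± 1.06% in induced SKMEL30.

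Of the kinases, STK3 had 18 h values below all untreated values in both lines, though no change was called. The share of all genes with this pattern at 18 h was not counted, so it cannot be read as particular to STK3. In SKMEL2 it read 30.0, 29.9 and 25.4 CPM at 6 h and 26.9, 25.8 and 25.5 CPM at 18 h, where all 3 values lay below the untreated libraries. In SKMEL30 it read 30.1, 30.0 and 30.3 CPM at 6 h and 26.3, 27.8 and 27.4 CPM at 18 h, the latter again below all 3 untreated values. The log2 change at 18 h was -0.16 ± 0.074 in SKMEL2 (unadjusted p = 0.0567, adjusted p = 0.987, edgeR) and -0.14 ± 0.054 in SKMEL30 (unadjusted p = 0.0237, adjusted p = 0.467, edgeR). The difference between the lines in this response was -0.018 ± 0.091 with a 95% interval of -0.21 to 0.17 on the log2 scale. STK4, its paralog, read 160.2, 155 and 145 CPM at 6 h and 161, 152 and 152 CPM at 18 h in SKMEL2, and 166, 166 and 163 and 165, 159 and 159 CPM in SKMEL30. The 95% interval of its change at 18 h was -9.18% to 7.54% in SKMEL2 and -3.80% to 4.59% in SKMEL30. The ratio of STK4 to STK3 per length was 4.10 ± 0.137 in untreated SKMEL2 and 4.52 ± 0.0364 at 18 h, and 4.10 ± 0.237 and 4.51 ± 0.221 in SKMEL30. With the longest transcript as length it was 3.56 and 3.93 in SKMEL2 and 3.56 and 3.92 in SKMEL30. By exon length the SKMEL30 libraries overlapped, with untreated values up to 4.37 and 18 h values from 4.35. Those of SKMEL2 did not, with untreated values up to 4.25 and 18 h values from 4.48. The ratio was not tested.

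LATS1 read 70.7, 70.3 and 58.4 CPM at 6 h and 68.8, 67.3 and 73.1 CPM at 18 h in SKMEL2, and 36.0, 39.6 and 36.5 and 36.1, 33.5 and 35.9 CPM in SKMEL30. The 18 h values of SKMEL30 lay below its untreated libraries, a pattern whose share over all genes was not counted. The log2 change was -0.11 ± 0.051 (unadjusted p = 0.0445, adjusted p = 0.528, edgeR). NF2 read 24.0, 25.0 and 27.9 CPM at 6 h and 24.7, 24.4 and 26.5 CPM at 18 h in SKMEL2, and 88.4, 79.4 and 80.7 and 87.8, 78.1 and 77.3 CPM in SKMEL30. In SKMEL30 the log2 change was -0.12 ± 0.054 (unadjusted p = 0.0496, adjusted p = 0.544, edgeR), and replicate 1 at 18 h overlapped the untreated values.

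**Figure D4:**
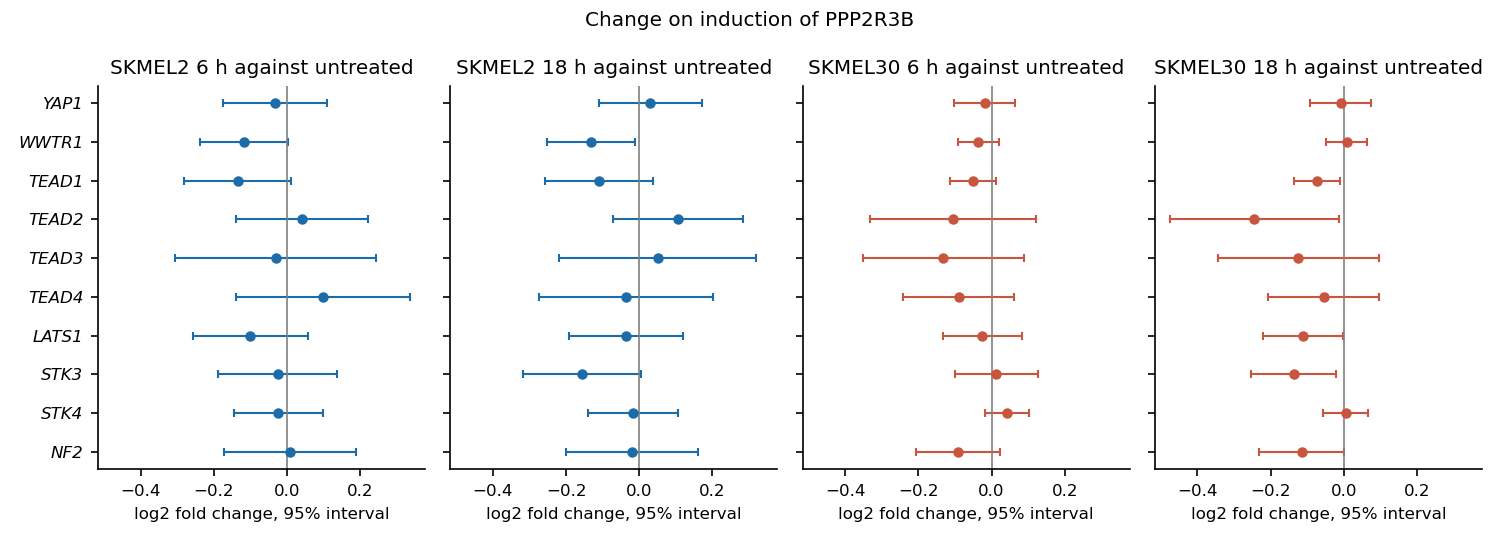
Log2 fold change of each of the 10 Hippo genes against untreated cells of the same line at 6 h and 18 h; points are estimates and bars 95% intervals from edgeR. No change was called at an adjusted p under 0.05, and the intervals of WWTR1 in SKMEL2 at 18 h and of TEAD1, TEAD2, LATS1, STK3 and NF2 in SKMEL30 at 18 h lie below 0.

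In SKMEL2 at 6 h, replicate 3 stood apart from the other 2 libraries for several of the genes. It had the lowest WWTR1, TEAD1, YAP1, LATS1, STK3 and STK4 of the 9 SKMEL2 libraries and the highest TEAD4 and NF2. Without it the 6 h log2 change turned sign for YAP1 (0.018), TEAD4 (-0.036), STK3 (0.039), STK4 (0.0082) and NF2 (-0.064), and that of WWTR1 was -0.078. Its total of 14711081 counts was the smallest in SKMEL2. It held 61 counts of KRT5 where the other 2 libraries of its group held 3 and 0. The untreated SKMEL2 libraries held 141.76, 104.78 and 82 counts of KRT5, and the 18 h libraries 133.41, 134.44 and 0. Its KRT5 count thus lay within the range of the line.

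The 18 h and 6 h groups were also compared with each other. No gene of the 10 was called by edgeR or DESeq2 in either line, where edgeR called 0% of all genes in SKMEL2 and 0.02% in SKMEL30. At an unadjusted p under 0.05 there were 0 of the 10 in SKMEL2, where 2.59% of all genes passed, and 1 in SKMEL30, where 5.56% did. That gene was STK3, with a log2 difference of -0.15 (unadjusted p = 0.0143, adjusted p = 0.771, edgeR). The response to induction was not called different between the lines for any of the 10 at 6 h or 18 h, where edgeR called 0% and 0.00584% of all genes. At an unadjusted p under 0.05 there were 0 of the 10 at 6 h and 2 at 18 h, WWTR1 and TEAD2, where 4.91% and 5.16% of all genes passed. DESeq2 called 0 of the 10 at both times.

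Around the 10 genes, a few others of the pathway were called between induced and untreated SKMEL30 cells in the fit of that line alone. Of the core partners, AMOTL2, an angiomotin family protein that binds YAP1, fell in SKMEL30 at 6 h. Of the YAP and TEAD targets, AMOTL2 and CCN1 fell at 6 h and CCN1 and MYOF at 18 h in SKMEL30, and none rose. These are 2 of 22 targets at each time, beside 0.206% and 0.293% of all genes called, and 0.113% and 0.12% called lower. CCN1 (CYR61), a secreted matricellular protein, went from 29.5 ± 0.624 CPM in untreated SKMEL30 to 17.0 ± 1.88 at 6 h and 21.1 ± 1.43 at 18 h (SD, n = 3). Its log2 change was -0.79 ± 0.074 and -0.48 ± 0.072 (edgeR adjusted p = 6.93e-05 and 0.00811). AMOTL2 went from 43.3 ± 2.93 CPM to 33.0 ± 0.765 at 6 h, a log2 change of -0.39 ± 0.057 (edgeR adjusted p = 0.00716). MYOF, a membrane repair protein of the ferlin family, went from 231 ± 2.38 CPM to 193 ± 1.09 at 18 h, a log2 change of -0.26 ± 0.027 (edgeR adjusted p = 1.86e-04), and was lower at 18 h than at 6 h as well (log2 difference -0.19, edgeR adjusted p = 0.0381). The AMOTL2 call was lost without SKMEL30 untreated replicate 1 (adjusted p = 0.0513) or 6 h replicate 3 (0.0672). The latter is the library with the high KRT5 and KRT14, at 802.73 and 566.09 counts against at most 38.22 and 27 in the other 2 of its group, and the AMOTL2 change without it was -0.38 on the log2 scale. The CCN1 call at 18 h was lost without untreated replicate 1 (0.0628), 18 h replicate 1 (0.0567) or 18 h replicate 2 (0.0551). The call of MYOF between the times was lost without any of 5 of the 6 libraries, all but 6 h replicate 2. With all 18 libraries in 1 fit, which gives both lines a common spread, none of these induction calls held (edgeR adjusted p = 0.147 for CCN1 at 6 h, 0.441 for AMOTL2, and 1 for CCN1 and MYOF at 18 h). The epithelial marker CDH1 rose in SKMEL30 at 18 h (log2 change 0.29 ± 0.040, edgeR adjusted p = 0.00341), and its part in these values was not tested.

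In SKMEL2 none of the targets was called by edgeR, and 7 of the 21 tested had an unadjusted p under 0.05 at each time, all of them lower, beside 3.37% and 4.65% of all genes. DESeq2 called 1 of the targets at each time, of 8 and 11 genes it called in all. CCN1 stood at 35.6 ± 7.61 CPM untreated, 24.4 ± 5.74 at 6 h and 24.4 ± 3.52 at 18 h in SKMEL2, a log2 change of -0.55 ± 0.18 and -0.55 ± 0.18. The log2 change of MYOF in SKMEL2 was -0.17 ± 0.17 and -0.57 ± 0.17, with adjusted p of 0.989 and 0.944 (edgeR). CCN2 (CTGF), named here after its values were seen, stood at 139 ± 11.9, 99.6 ± 17.4 and 96.6 ± 4.30 CPM, with adjusted p of 0.989 and 0.577 (edgeR). The difference between the lines in the CCN1 response was 0.23 ± 0.22 at 6 h and -0.078 ± 0.21 at 18 h on the log2 scale, SKMEL2 minus SKMEL30 (edgeR adjusted p = 0.902 and 0.992). Over the whole list, 16 and 17 of 21 targets lay below 0 in SKMEL2 at 6 h and 18 h, with medians of -0.12 and -0.13, and 17 of 22 at both times in SKMEL30, with medians of -0.12 and -0.11, while the medians of all genes lay within 0.003 of 0. The highest log2 change of a listed target was 0.23 at 6 h and 0.39 at 18 h in SKMEL2. In SKMEL30 it was 0.37 at 6 h and 0.38 at 18 h, and none of these rises was called. The list of targets was chosen with earlier results of these data known, so its direction is no independent evidence. No upstream regulator and no STRIPAK gene was called in any of the 4 comparisons by edgeR or DESeq2. At an unadjusted p under 0.05 there were, in SKMEL2, 2 of 15 core partners at 6 h and 0 at 18 h, 2 and 4 of 20 upstream regulators, and 0 of 17 STRIPAK genes at both times, beside 3.37% and 4.65% of all genes. In SKMEL30 there were 5 of 14 core partners at 6 h and 4 at 18 h, 2 and 1 of 19 upstream regulators, and 2 and 3 of 17 STRIPAK genes, beside 6.44% and 9.14% of all genes.

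**Figure D5:**
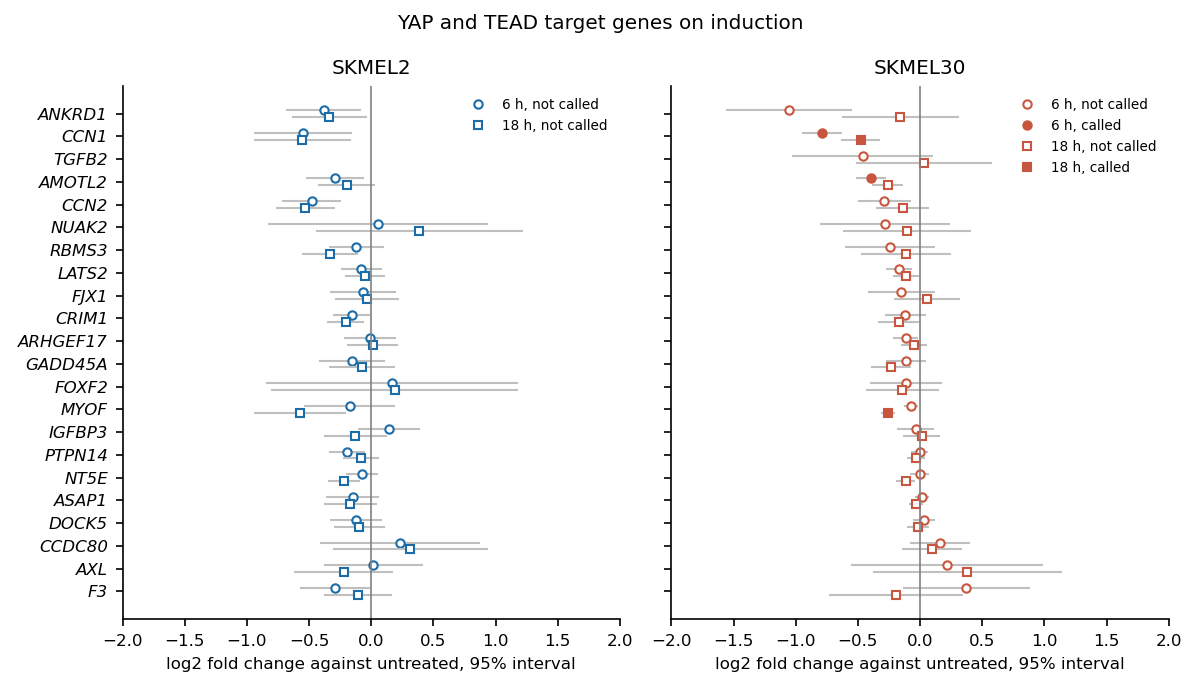
Log2 fold change against untreated cells of the 22 listed YAP and TEAD target genes at 6 h (circles) and 18 h (squares), with 95% intervals; filled symbols were called at an adjusted p under 0.05. CCN1 fell at both times, AMOTL2 at 6 h and MYOF at 18 h in SKMEL30, and none was called in SKMEL2, where TGFB2 was not tested.

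The genes whose levels were most like those of YAP1 over the 18 libraries, after the mean of each line was subtracted, were SLC35F5 (Pearson r = 0.93), DDI2 (0.92) and TMEM181 (0.91). Those most like WWTR1 were ZBTB21 (0.92), IL1RAP (0.90) and USP53 (0.89). These are the highest of 8796 genes with a mean of at least 10 CPM in both lines, and they share library, depth and normalization with the genes they follow.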

How the data were processed

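The values deposited by the authors are RSEM expected counts per gene (GRCh38, Ensembl release 86), not scaled for library size. The submitters' processing notes list Trimmomatic 0.36, cutadapt 1.5, STAR 2.2.2a, SAMtools 1.8, RSEM 1.3.0 and DESeq2, and the study's methods name other versions of Cutadapt and STAR. The later time is 18 h by the labels, which the study's text gives slightly earlier. All 18 columns were matched to a sample and 0 were left over. Of the values, 12.3% were not whole, and 55604 genes had a symbol.

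Counts were rounded to whole numbers. The filter on low counts was filterByExpr and the scaling TMM (factors 0.957 to 1.06), both of edgeR 4.0.16 under R 4.3.3. Induction and 18 h against 6 h were tested by glmQLFTest in fits of the 9 libraries of a line. The difference between the untreated lines and between their responses came from a fit of all 18 libraries, as did the CPM printed. Called means an adjusted p below 0.05 (Benjamini-Hochberg, over all genes tested). The SE was the log2 change divided by the square root of F. Exon lengths came from GENCODE v44 on GRCh37 by gene ID and served as lengths only. No 2 replicates were alike within sampling noise: chi-square divided by its degrees of freedom ran from 2.13 to 20.6 over 18 pairs. A 0 allows up to 3 counts, by counting error only.

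The members and lists were chosen with earlier results of these data known. The text names the 10 genes, PPP2R3B, each list gene called on induction, for each list the 3 called genes with the largest difference between the untreated lines and a mean of at least 1 CPM in either, and the 3 genes most correlated with YAP1 and with WWTR1. CCN2 and marker genes fall outside this rule. The marker PECAM1 was not matched to the table. Alternatives were DESeq2 1.42.0, RLE factors, 2 other filters, other sets of libraries in the fit, the replicate number as a block and each library left out. The tests were first run on simulated data with known changes. The simulated libraries were drawn independently, and the planted changes were larger than those of the 10 genes on induction. That run therefore does not show whether changes as small as these would be found.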

Additional observations from a re-analysis of the deposited data

How the results depend on the processing

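None of the 10 Hippo genes was called in any comparison of induced cells, of the times or of the responses under any alternative run, and 8 differed between the untreated lines with DESeq2 and with RLE factors. The call of TEAD1 between the lines was lost without 4 of 6 libraries. Of 515 alternative values of the changes on induction, 27 had the opposite sign, and 2 of 120 between the lines did. With no filter NF2 in SKMEL2 at 6 h was at -0.0046, and with at least 10 counts in every library STK3 and STK4 between the lines were at -0.0091 and -0.012. DESeq2 gave no adjusted p for TEAD2, TEAD3, TEAD4, LATS1, STK3 and CCN1 in SKMEL30 at 18 h. With the longest transcript as length, the TEAD1 share was 70.2% in SKMEL2 and 63.7% in SKMEL30. The causes were not tested.

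With libraries left out in turn, log2 changes in SKMEL2 at 6 h ran from -0.086 to 0.018 for YAP1, -0.013 to 0.075 for TEAD2, -0.036 to 0.18 for TEAD4, -0.058 to 0.039 for STK3, -0.048 to 0.0082 for STK4 and -0.064 to 0.062 for NF2. At 18 h they ran from -0.0072 to 0.073 for YAP1, -0.035 to 0.14 for TEAD3, -0.10 to 0.013 for TEAD4, -0.046 to 0.012 for STK4 and -0.067 to 0.017 for NF2. In SKMEL30 at 6 h they ran from -0.045 to 0.0092 for YAP1 and -0.032 to 0.050 for STK3. At 18 h they ran from -0.032 to 0.020 for YAP1, -0.0025 to 0.019 for WWTR1, -0.19 to 0.0074 for TEAD3, -0.096 to 0.0040 for TEAD4 and -0.013 to 0.015 for STK4.

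The number of all genes called moved more. With DESeq2 it was 8 and 11 in SKMEL2 at 6 h and 18 h (2 and 2 with edgeR), 71 in SKMEL30 at 18 h (44), 5 and 12 between the times in SKMEL2 and SKMEL30 (0 and 3) and 3 for the difference in the 18 h response (1). With no filter it was 158, 168, 321 and 359 in the 4 comparisons with untreated cells, 135 and 197 between the times and 237 and 216 for the differences in response. With all 18 libraries in 1 fit it was 6, 7, 5 and 9 in the 4 comparisons and 0 between the times in SKMEL30. With the compared libraries alone it was 9 in SKMEL2 at 18 h and 0 between the times in SKMEL30, where at least 10 counts in every library gave 5. Leaving out single libraries gave 2 to 5 genes in SKMEL2 at 6 h, 16 to 33 and 25 to 30 in SKMEL30 at 6 h and 18 h, 0 to 1 and 0 to 5 between the times, and 0 to 1 and 1 to 2 for the differences in response.

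The labels give replicate numbers 1 to 3 in each group but not what they share. Deviations of same-numbered libraries correlated above 0.1 in 7 of the 9 SKMEL2 pairs, with a range of -0.38 to 0.58. In SKMEL30 it was 6 of 9, ranging from -0.019 to 0.20. Libraries were not taken as paired, since the labels name no pairing. Whether the numbers mark a shared batch was not tested. With the replicate block, 7 genes were called in SKMEL2 at 18 h and 16 between the times in SKMEL30, 3, 40 and 37 in SKMEL2 at 6 h and SKMEL30 at 6 h and 18 h, and 13004 between the lines. None of the 10 Hippo genes was called on induction with the block, and 8 were called between the lines. TEAD2 and TEAD3 rested on as few as 76 and 87 counts in a library, which limits how small a change could be seen.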

Other observations

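Among the 10 Hippo genes themselves, levels of several pairs moved together over the 18 libraries after the mean of each line was subtracted. Pearson r was 0.79 for WWTR1 and TEAD1, 0.75 for TEAD4 and NF2, 0.72 for TEAD1 and LATS1 and 0.69 for YAP1 and LATS1, and the lowest of the 45 pairs was TEAD4 with STK4 at -0.57. All pairs share library, depth and normalization, and SKMEL2 6 h replicate 3 was at an end of the SKMEL2 range for 8 of the 10 genes.

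Of the 180 member values, 33 were not whole numbers, 17 of them in WWTR1, 15 in LATS1 and 1 in TEAD2, so RSEM shared reads of these 3 genes with other annotated genes. The other 7 genes, with the paralogs STK3 and STK4 among them, had whole counts in all 18 libraries.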
